A study of Brassica rapa and Brassica oleracea and Brassica napus with 3 samples.

Results

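Genes that the study names *AGL24* were examined in BS-seq data, 1 from the diploid genome Co and 1 from each of the subgenomes An and Cn. They are BolC08g047440.2J of *B. oleracea* (Co), BnaA09G0581700ZS (*AGL24-A*, An) and BnaC08G0434600ZS (*AGL24-C*, Cn) of *B. napus*. The genes were chosen by identifier from the homoeologous tetrad (a set of 4 corresponding genes) shown by the study. These 3 of its 4 genes are described here, among 159066 annotated genes of 2 libraries. The study describes this tetrad for chromatin accessibility and H3K4me3, which were not analysed here. Young leaves of 14 d old *B. napus* (labelled zs11) and *B. oleracea* (JZS) plants gave 1 library per species, with no treatment and no transgene. *B. oleracea* is the putative C-genome progenitor of the allotetraploid *B. napus*, whose An and Cn genes were measured in the same library.

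In *Arabidopsis*, AGL24 is a MADS-box transcription factor that promotes flowering in the shoot apex, where it acts with SOC1 to activate *LEAFY*. Plant cytosines are methylated in CG, CHG and CHH contexts, and dense methylation of flanking sequence often marks transposons and other silenced sequence, whereas many expressed genes are little methylated around their start. In BS-seq, bisulfite turns unmethylated cytosines into uracil, so that the share of cytosines still read as C gives the methylation level. No sequence or symbol table used here pairs these identifiers with *AGL24*, so the name could not be checked against sequence. The files list 2 coding exons for each of the genes, whereas *AGL24* of *Arabidopsis* is split by several introns.

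The deposited value is the methylated fraction of cytosines in 12 bins of each gene, given here in percent. Bins 1 to 4 are the upstream flank, bins 5 to 8 the gene body and bins 9 to 12 the downstream flank, read along the strand of the gene. This order was read from the files for *B. napus* and inferred for *B. oleracea* from the profile over all genes. The 5′ untranslated region (UTR) carried the upstream flank of its transcript in 100% of *B. napus* cases. The order of coding exon rows in *B. oleracea* was split nearly evenly (50.9% and 49.1%) between both ends of the gene. Bins that follow the strand would give this split if rows are listed in genome order. Bins that follow the genome would give it too if rows are listed in transcript order, so this split alone does not settle the direction. Bins in genome order would mix both strands and give near equal medians at both ends of the gene body. The median over all Co genes was 1.39% in the first gene body bin and 3.61% in the last. The Cn medians, read along the strand, differed in the same direction (0.230% and 0.633%). The Co bins were therefore read along the strand. The level of a region is the mean of its 4 bins, and the SD over these bins is its only measure of spread. Each species has a single library, so there are no replicates and no test was made. A difference between species cannot be told apart from a difference between libraries or annotations. The number of reads behind a bin and the cytosine context are not given, so no interval can be set and a bin at 0 cannot be told from a poorly covered one. All 12 bins of each of the 3 genes had a value. Over all genes, 4.88% (Cn) to 8.60% (An) of bins had none, and 18.2% (Co) to 29.1% (An) of those with a value were at 0.

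The 3 genes had distinct profiles. The An gene had no bin above 6.97%, and both C genes had a methylated downstream flank. The mean over the 12 bins was 7.86% in Cn, 6.25% in Co and 0.850% in An, at percentiles 53.4, 35.8 and 18.03 of genes in the same (sub)genome. The number of bins at 10% or more was 4 in Cn, 3 in Co and 0 in An. Among genes with a full profile, no such bin occurred in 34.1% of An, 19.2% of Cn and 15% of Co genes, so the low profile of the An gene is common among An genes. Bin by bin, the An gene stood between percentiles 11.03 and 60.9 of An genes, highest in the first upstream bin (6.97%, against a median of 2.62%) and near the middle in the first gene body bin (percentile 51.5).

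**Figure D1:**
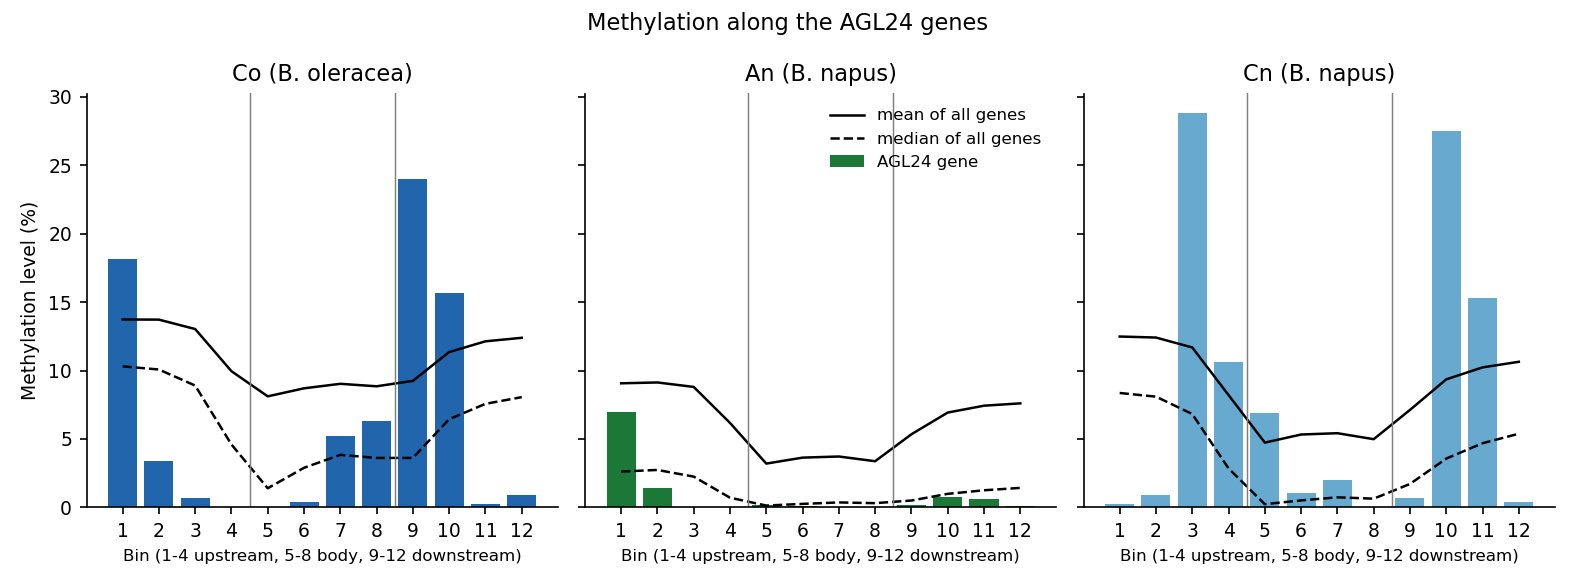
Methylation level (%) in each of the 12 bins (x axis: bins 1 to 4 upstream, 5 to 8 gene body, 9 to 12 downstream) of the 3 AGL24 genes, 1 library per species. Coloured bars are the AGL24 gene, the solid line is the mean and the dashed line the median of all genes of that (sub)genome; bars of Co and Cn exceed 20% downstream, whereas no bar of An exceeds 6.97%.

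In the downstream flank, both C genes were methylated and the An gene was near 0. The 4 bins of the Co gene, from the gene end outwards, were at 24.0%, 15.7%, 0.212% and 0.916%. Those of the Cn gene were at 0.694%, 27.5%, 15.3% and 0.398%. Both C genes thus had a pair of adjacent methylated bins, which lay 1 bin farther from the gene end in Cn. The 4 bins of the An gene were at 0.147%, 0.757%, 0.596% and 0.0942%. Every downstream bin of the An gene was below both methylated bins of either C gene. The downstream level was 10.97% ± 13.03 in Cn (SD over 4 bins), 10.2% ± 11.7 in Co and 0.398% ± 0.328 in An. Relative to all genes of the same (sub)genome, these levels stood at percentile 62.6 in Cn, 54.8 in Co and 28.9 in An. The methylated bins stood higher, with the 24.0% bin at percentile 86.9 of Co genes and the 27.5% bin at percentile 91.1 of Cn genes in the same bin. At least 1 downstream bin of 20% or more occurred in 40.9% of Co and 35.6% of Cn genes.

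The position of the gene end differs between annotations. The *B. napus* genes have annotated UTRs, whereas the rows of the Co gene end with the coding exons. Counted from the last coding exon, the Cn bins were at 0.561%, 10.8%, 24.9% and 3.50%. The first bin beside the coding end was therefore low in Cn and at 24.0% in Co on this scale too.

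In the upstream flank, the Co and An genes had a similar shape and the Cn gene another. The 4 bins of the Cn gene, from the far end towards the gene, were at 0.233%, 0.917%, 28.8% and 10.6%, so that the highest bin was the second from the gene start. The bins of the Co gene were at 18.2%, 3.39%, 0.702% and 0, and those of the An gene at 6.97%, 1.38%, 0 and 0. In the latter genes the level was highest in the bin farthest from the gene and fell to 0 beside it. The largest difference in any single bin between the homoeologs of *B. napus* lay here, in the third upstream bin, with 0 in An and 28.8% in Cn. That bin stood at percentile 88.0 of Cn genes and at percentile 11.03 of An genes, of which 22.1% were at 0 in this bin. At least 1 upstream bin of 20% or more occurred in 44.2% of Cn genes. The upstream level was 10.1% ± 13.3 in Cn, 5.57% ± 8.54 in Co and 2.09% ± 3.32 in An. Neighbours in this order differed by less than the larger SD over bins. These levels stood at percentiles 52.9, 35.8 and 40.4 among the genes of Cn, Co and An.

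In the flank counted from the first coding exon, which takes in the annotated 5′ UTR, the level was 6.96% in Cn and 1.75% in An. The highest bin on this scale was at 19.7% in Cn, again the third. The level of Co is the same on both scales.

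Gene bodies had lower levels, and the genes differed in where the methylation lay. The Co gene rose from start to end, with 0, 0.384%, 5.20% and 6.29%. The Cn gene fell from its start, with 6.88%, 1.03%, 2.02% and 0. The An gene had 0.151%, 0.0986%, 0 and 0. The gene body level was 2.97% ± 3.24 in Co, 2.48% ± 3.05 in Cn and 0.0623% ± 0.0750 in An, and neighbours in this order differed by less than the larger SD. None of the 3 gene bodies reached 20%, a level found in 18.4% of Co genes, 6.03% of An genes and 9.57% of Cn genes. Within its own (sub)genome, the Cn gene body stood highest (percentile 66.6), followed by Co (46.03) and An (24.8).

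Rows of exons and UTRs located this signal further. Both coding exons of the Co gene were at 0 in all 8 bins, although the gene body as a whole was at 2.97%, so the measured methylation of the Co gene lay outside its coding exons. Among Co genes with at least 2 coding exons and a gene body level of at least 2%, 2.04% had every coding exon bin at 0. The difference of coding exons and gene body in Co, −2.97 percentage points, stood at percentile 13.6 of Co genes with at least 2 coding exons, whose median was 0.

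In the Cn gene, by contrast, exon methylation lay in the first exon. Its 4 bins were at 16.8%, 10.6%, 0 and 2.56%, and those of the coding part of this exon were at 19.0%, 3.33%, 0.138% and 3%. The second exon was at 0 in all 4 bins. The bin just upstream of this exon was at 1.41%, so methylation within the Cn gene was not shown to be confined to the first exon. The coding exon level of the Cn gene was 3.19%, above its gene body level of 2.48%, as in 33.5% of Cn genes with at least 2 coding exons. The first exon of the An gene reached at most 0.222%, and its coding part at most 0.268%. The second exon of the An gene was at 0. The 5′ UTR and 3′ UTR rows of both *B. napus* genes were at 0 in every bin. Such rows are common, with 81.7% of 5′ UTR and 73.7% of 3′ UTR rows of *B. napus* at 0 in all 4 bins.

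**Figure D2:**
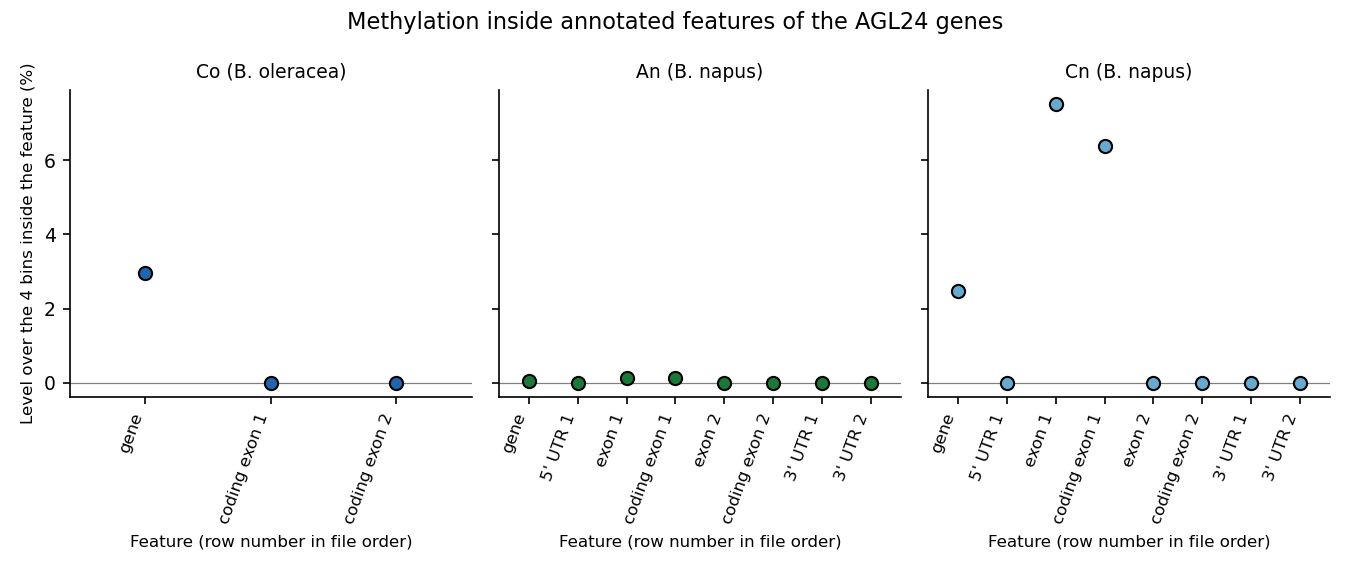
Level (%, mean of the 4 bins inside the feature) of the gene, exon, coding exon and UTR rows of each AGL24 gene, 1 point per row, numbered in file order. The gene body of Co is at 2.97% with both coding exons at 0, and the first exon of Cn is at 7.51%.

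The homoeologs of *B. napus* were compared with each other. The list of homoeologous tetrads read here holds 1998 tetrads, with the An gene on A01 (1385 tetrads), on A02 (609 tetrads) or elsewhere, and serves as a background that comes almost entirely from other chromosomes (1 tetrad has its An gene on A09). The An gene was below the Cn gene in every region, by 10.6 percentage points downstream, 8.05 upstream and 2.42 within the gene body. In the 2 flank bins nearest the gene it was below Cn by 13.6 points downstream and by 19.7 points upstream, so the order of the flanks depends on the window. None of the differences over whole regions was larger than the SD over the bins (13.03, 13.3 and 3.05). An was below Cn in 58.0% of tetrads upstream, 47.3% in the gene body and 55.5% downstream. In the same order, the absolute difference was smaller than that of *AGL24* in 61.4%, 81.5% and 76.9% of tetrads. Tetrads with equal levels in An and Cn were counted as not below, and the median difference in the gene body was 0. Over the 12 bins, the mean absolute difference of An and Cn was 8.21 points, higher than in 70.3% of tetrads.

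The Cn gene was also compared with that of the putative progenitor. Cn exceeded Co by 4.57 points upstream and 0.756 points downstream and was 0.484 points lower in the gene body, each within the SD over bins. The downstream and gene body differences changed sign with the processing. The upstream difference was 1.39 points with the flank counted from the first coding exon, which in Cn takes in the annotated 5′ UTR. It was 19.4 points in the 2 bins nearest the gene, more than the SD of 13.3 over all 4 upstream bins. Levels over whole regions thus came from different bins. The mean absolute difference over the 12 bins was 10.6 points between Cn and Co, higher than in 90.5% of tetrads. The largest of the 12 differences was in the third upstream bin (28.8% in Cn and 0.702% in Co).

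**Figure D3:**
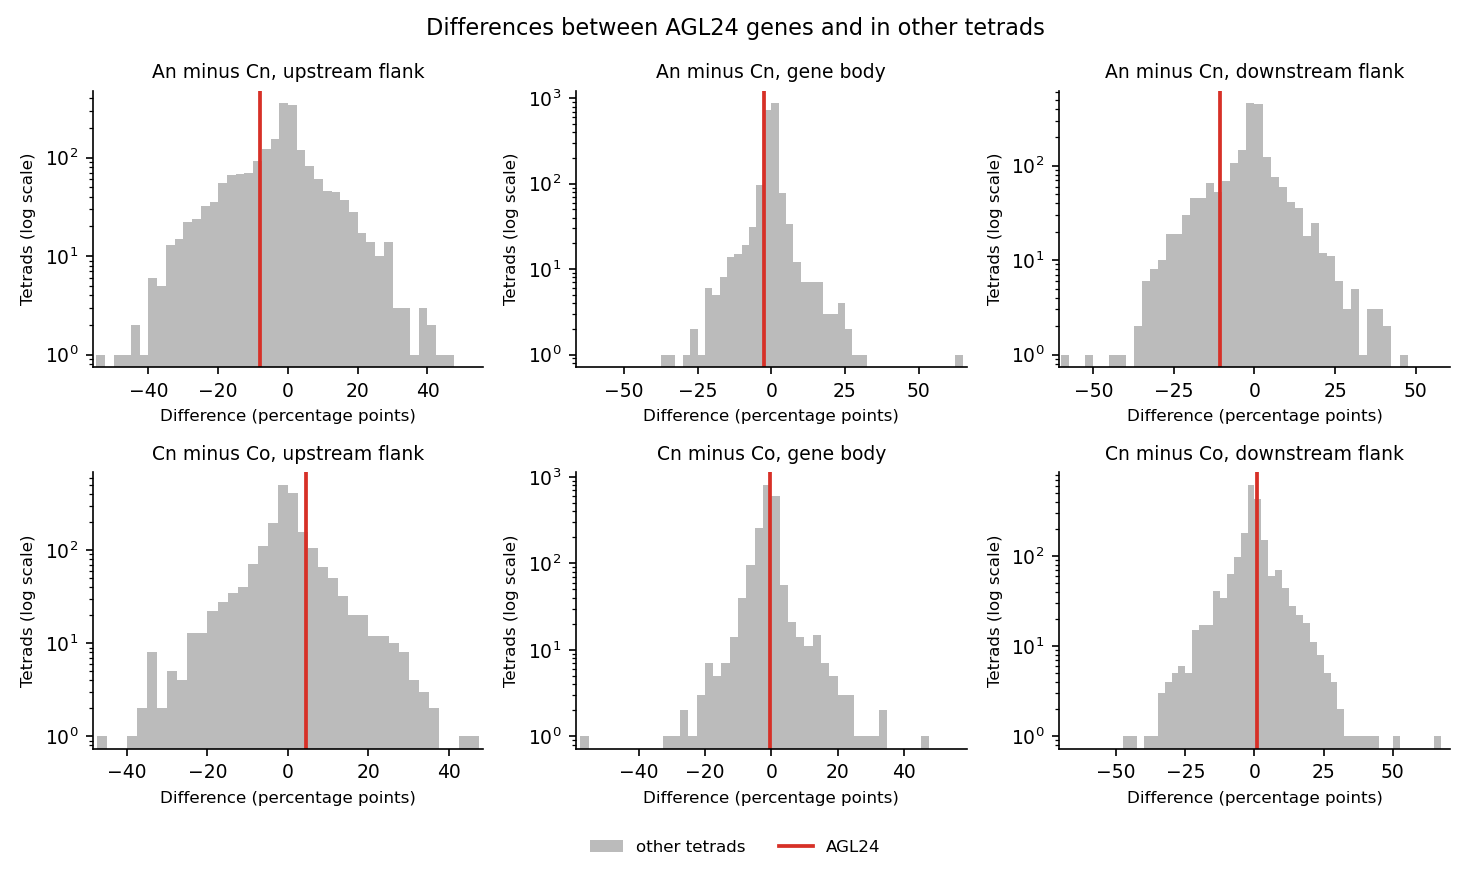
Difference in level (percentage points, x axis) between An and Cn and between Cn and Co for each region, with the tetrads read here as grey bars (number of tetrads on a log axis) and AGL24 as a red line. AGL24 lies at −8.05, −2.42 and −10.6 for An minus Cn and at 4.57, −0.484 and 0.756 for Cn minus Co, within the range of the other tetrads.

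Between species and subgenomes, An was below Co by 9.81 points downstream, 3.48 upstream and 2.90 within the gene body, less in each case than the larger SD over bins. The An gene thus had the lowest level of the 3 in each region. It was lowest both upstream and in the gene body in 18.9% of tetrads, a share that does not take in the downstream flank. On percentiles within each (sub)genome, however, the Co gene of *AGL24* stood lower upstream than the An gene. A downstream level of at least 10% in Co and Cn with under 1% in An occurred in 4.45% of tetrads, and the reverse in 1.99%, with limits chosen after the values of *AGL24* were seen.

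Neighbouring genes gave the local background. The genes hold the places 4744 of 6107 on C08 (Co), 5817 of 7218 on A09 (An) and 4346 of 5349 on C08 (Cn) in identifier order, each about 80% along its chromosome (77.7% to 81.2%). The files give no coordinates. The 10 genes before and the 10 after each were used. For An, only 14 or 15 of the 20 had a level, since a stretch of 16 genes with incomplete values begins 4 genes after it.

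Ranked from the highest level, the Cn gene was at place 10 of 21 upstream, close to its neighbours' median of 8.68%. The Co gene was at place 17 of 21, with neighbours from 0.603% to 28.0% (BolC08g047360.2J) and a median of 8.27%. The An gene was at place 11 of 15, with neighbours from 0 to 16.3% (BnaA09G0581100ZS) and a median of 8.11%. The genes beside it, BnaA09G0581600ZS and BnaA09G0581800ZS, were at 11.4% and 8.04%, so the low upstream level of the An gene did not extend to the genes on either side.

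In the gene body, the Cn gene was at place 7 of 21 (median 0.955%, highest 18.2% in BnaC08G0434100ZS), the Co gene at place 17 of 21 (median 5.45%, highest 26.1% in BolC08g047520.2J) and the An gene at place 12 of 15 (median 0.594%, highest 7.92% in BnaA09G0581400ZS).

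Downstream, the Cn gene was at place 6 of 21, above a median of 4.77% and below 15.8% in BnaC08G0434200ZS, and its adjacent genes BnaC08G0434500ZS and BnaC08G0434700ZS were at 8.60% and 3.20%. The Co gene was at place 9 of 21 (median 6.94%, highest 36.9% in BolC08g047520.2J). Its adjacent genes BolC08g047430.2J and BolC08g047450.2J were at 6.91% and 14.2%. The An gene was at place 6 of 16 (median 0.228%, highest 24.7% in BnaA09G0581100ZS), so a downstream level near 0 was usual in its neighbourhood. In no region was one of the 3 genes the most methylated of its neighbourhood.

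**Figure D4:**
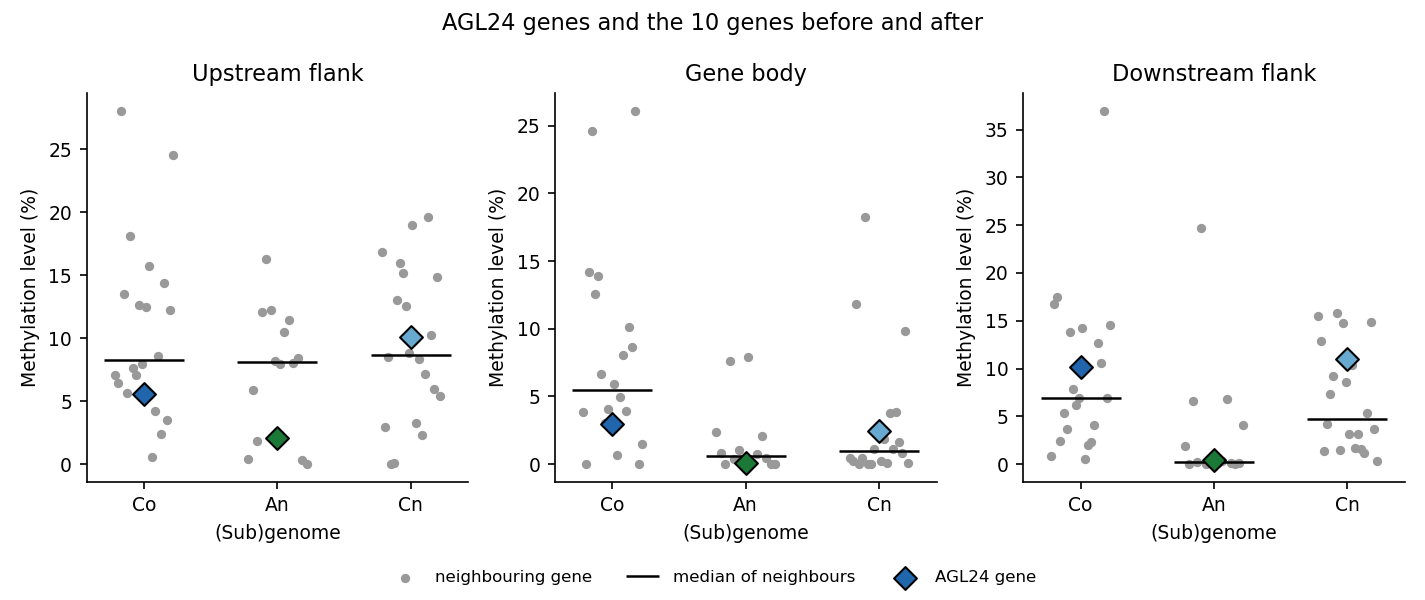
Methylation level (%) of each AGL24 gene (coloured diamond), of the 10 genes before and the 10 after it that had a level (grey points) and the median of these neighbours (black line), for each region. The An gene lies below its neighbours' median upstream (2.09% against 8.11%), and the Cn gene above it downstream (10.97% against 4.77%).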

How the data were processed

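Reads of the BS-seq libraries were filtered by the authors with Fastp and mapped with BatMeth2. The deposited values are methylated fractions (0 to 1) in 12 bins per annotated feature, converted here to percent. Coverage, bin width, cytosine context and normalization between libraries are not given in the sources used here. ZS11 is the only genome that the methods give for the mapping, but each library's identifiers belong to its own species. The methods describe DNA extraction and bisulfite treatment, the protocols in the labels RNA extraction (*B. napus*) or formaldehyde fixation (*B. oleracea*). Results from 2 libraries are given, and those that need a further one are not reported here.

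A region's level was the mean of its bins, with at least 2 of 4 required. Percentiles are among all genes of the (sub)genome, counting ties by the middle. The larger SD over bins of a pair was used as the spread of its difference. The tetrad list was read from the part of the study's supplementary list at hand, so no overlap was tested. Named genes were the 3 members, the adjacent genes, the most methylated neighbour in each region and the 5 most similar tetrads. Flowering genes were to be named only where a table paired symbols with identifiers, and none did. Members and lists were chosen with earlier results of these data known. Steps were tested on simulated data. Python 3.11.15, numpy 2.4.6, pandas 2.3.3, scipy 1.17.1 and matplotlib 3.10.9 were used.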

Additional observations from a re-analysis of the deposited data

How the results depend on the processing

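Across all alternatives, 131 values were recomputed. Of these, 120 changed by less than their spread, 5 changed by more and 6, all of Cn minus Co, changed sign. For ranks among neighbours, the spread was the exact binomial interval of the share of lower neighbours, which treats adjacent genes as independent draws. The 120 include values that could not change, because transcript rows equalled gene rows and no bin of the 3 genes lacked a value. An minus Cn upstream went from −8.05 to −19.7 points in the 2 bins nearest the gene and still counted as within its spread of 13.3. The count of 120 is thus no measure of stability. Depth is unknown and limits every value, and a coverage minimum could not be varied. No paired analysis was possible because each species has 1 library. Cn minus Co in the gene body (−0.484 percentage points) became 0.139 after scaling every (sub)genome to its mean, 3.19 in coding exons and 20.6 in percentile points. Downstream (0.756) it became −0.315 with the median of the bins, −5.76 in the 2 bins nearest the gene and −0.271 with flanks counted from the coding exons, an alternative chosen after seeing the data. Upstream (4.57) it rose to 19.4 in the nearest bins. In percentile points, another scale, An minus Cn was −41.8 in the gene body and −33.6 downstream. The Co gene was above 5% of its neighbours upstream with the median of the bins, and the An gene above 88.9% downstream among the 5 genes on either side. The causes were not tested.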

Other observations

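The tetrads with the methylation pattern most like *AGL24* were sought among 1977 tetrads by the root mean square difference over up to 36 bins (12 in each of 3 genes). At least 30 of these bins had to have a value, a minimum set after the data were seen. The closest were those of BnaA01G0019700ZS (6.12 percentage points), BnaA02G0206900ZS (7.11), BnaA01G0156400ZS (7.15), BnaA02G0402800ZS (7.28) and BnaA01G0021700ZS (7.32), against a median of 11.4 over all tetrads compared. The SD of the 36 *AGL24* bins was 8.12, so even these tetrads were little closer to *AGL24* than a flat profile at its mean. The Cn gene had a downstream level of 4.40% to 17.1% in these tetrads, beside 10.97% in *AGL24*. The Co gene had 0.631% to 7.60%, below the 10.2% of *AGL24* in all 5, so none of them had a downstream level of 10% or more in both C genes. The An gene had a downstream level of 0.0963% and 0.200% in the tetrads of BnaA01G0019700ZS and BnaA01G0021700ZS and of 2.00% to 7.36% in the others, beside 0.398% in *AGL24*.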
